A study of Mus musculus with 6 samples.

Results

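Chromatin accessibility at 9 mouse genes that sense, make or clear extracellular adenosine and ATP was read from 6 ATAC-seq peak lists. ATAC-seq marks open DNA by the insertions of the Tn5 transposase. The genes were the adenosine receptors Adora2a, Adora2b and Adora3, the ATP-gated channel gene P2rx7, the ectoenzyme genes Entpd1 and Nt5e, and the clearance genes Ada, Adk and Slc29a1. A peak belonged to a gene when its summit lay in the gene body or within 3 kb of an annotated start (GENCODE, GRCm39). Overlapping peaks of the 6 libraries were joined into 62876 regions, and 47 of these belonged to the 9 genes, out of 15397 protein-coding genes with a peak in any library. The receptors held 14 of the 47 regions, the ectoenzymes 21 and the clearance genes 12. Regions were numbered along each gene from its 5′ end.

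Control mice gave 3 libraries and mice of the HADA group, short for high-altitude de-acclimatization, gave 3, each made from about 50000 peripheral leukocytes after lysis of red cells. The labels and the methods name leukocytes, whereas the results text of the study names mononuclear cells, a fraction that holds few neutrophils. The study's methods describe male C57BL/6J mice, HADA mice being kept in a low-pressure, low-oxygen chamber for weeks and then returned to normal oxygen. Its results text states that control mice stayed in normal oxygen throughout. No allele or drug was part of either group. The time after return at which this blood was drawn, and whether each library was 1 mouse, are not given in the sources used here, so p-values measure the spread between these libraries. The question was whether the loci of hypoxia-linked receptors, ectoenzymes and clearance genes differed in accessibility between HADA and control blood.

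As background, ATP that leaves stressed or dying cells acts on P2 receptors and is cut stepwise outside the cell. CD39, the product of Entpd1, turns ATP and ADP into AMP, and CD73, the product of Nt5e, turns AMP into adenosine. Adenosine acts on G protein-coupled receptors that dampen many leukocyte responses, and it is removed by uptake through the equilibrative transporter of Slc29a1, by phosphorylation through adenosine kinase (Adk) or by deamination to inosine through adenosine deaminase (Ada). Low oxygen is known to raise extracellular adenosine in many tissues.

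The libraries held 34045 to 45799 peaks on the main chromosomes, with control 3 the lowest, and 33 to 38 of these fell at the 9 genes. The height of a peak was its summit pileup, the number of stacked fragments, solved from the deposited fold enrichment and p-value. It is printed as fold over the lowest background pileup of the same library, which was 1.69 to 2.05 in controls and 1.99 to 2.34 in HADA. The lowest pileup in a list was 7 to 9, so a region without a peak in a library may still hold reads below that level. Accessibility at cell type marker genes differed between the groups. The summed height of 8 B cell marker genes was 557, 314 and 52.5 in controls and 1576, 1624 and 1550 in HADA. The summed height of 8 neutrophil marker genes was 473, 282 and 796 in controls and 278, 211 and 149 in HADA. Of the neutrophil markers, Camp had no peak in any library and Ly6g had a peak in control 3 only, while Mmp9, Cxcr2, Csf3r, S100a8 and S100a9 had peaks in all 6. Control 3 thus stood apart, with the lowest B cell and the highest neutrophil sums. In such a mixture, a change in how many cells carry an open region cannot be told apart from a change in how open it is in each cell.

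**Figure D1:**
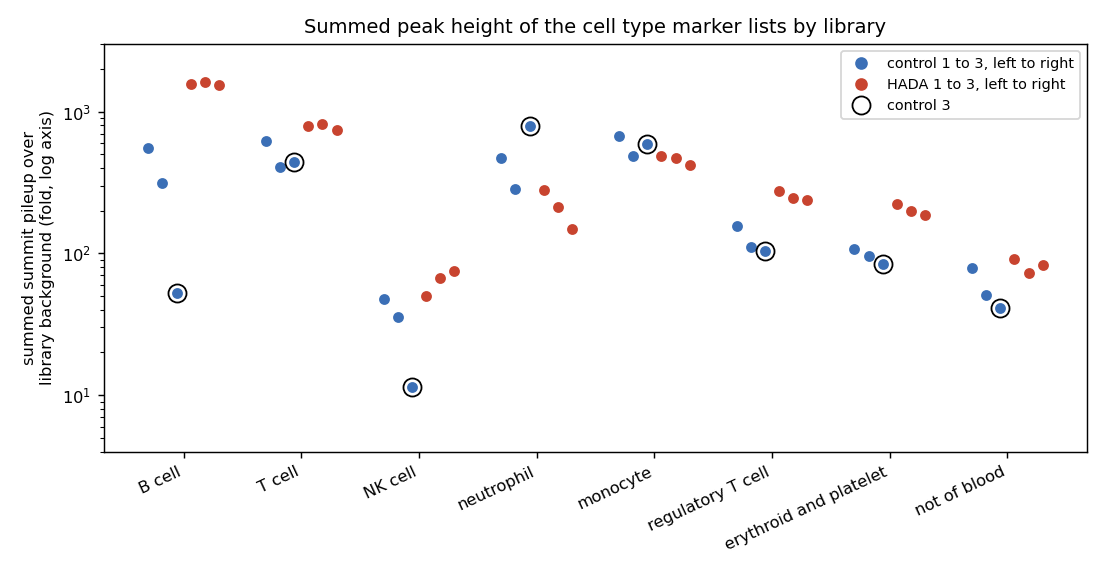
Summed summit pileup over library background (vertical log axis) of 8 lists of cell type marker genes, with 1 point per library, controls in blue and HADA in red, and control 3 ringed. B cell, T cell, natural killer (NK) cell, regulatory T cell and erythroid and platelet sums were higher in all HADA than in all control libraries, the neutrophil sums were lower, and the monocyte and non-blood sums overlapped, whereas relative to the median shared region the monocyte sums were lower in all HADA libraries and the NK cell sums overlapped.

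The lists matched leukocytes only in part. The T cell sums were 407 to 621 in controls and 747 to 817 in HADA, and the monocyte sums were 489 to 672 and 420 to 490. Relative to the median shared region, the scale of the test below, the monocyte sums did not overlap and were lower in HADA (ratio of means 0.607), and the NK cell sums overlapped, while the other 6 lists kept their pattern. The regulatory T cell sums were 104 to 157 in controls and 237 to 276 in HADA, and those of NK cells were 11.5 to 47.4 and 50.4 to 75.6. The erythroid and platelet sums were 83.6 to 107 in controls and 186 to 223 in HADA. The list of genes of tissues other than blood reached 41.0 to 78.8 in controls and 72.3 to 91.9 in HADA, and its members Alb and Krt5 had no peak in any library. The part of these cell types in the results below was not tested.

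Sequences from called regions, and from the start regions set beside them, are shown next, read from GRCm39 by coordinates. Capitals mark matches, on either strand, to short motifs, and a match is a description of the letters only. The first set holds the start regions, shown as 29 bases where annotated untranslated sequence lies close, and all longer stretches are 121 bases centred on the summit. The 29 bases were centred on the motif matches found in the 121 bases around the summit, so that they hold a match by choice, and those of Adora2a and Nt5e do not reach the summit base. The 29-base windows are shown for the letters ACGTG and GCGTG, the core of the hypoxia response element bound by hypoxia-inducible factors. The Adora2b window held neither form. P2rx7 region 1, Adk region 2 and Slc29a1 region 2, also near starts, held GCGTG within 201 bases centred on the summit and are not shown. Of the 5 regions of this set, those of Adora2a and Adora2b were called in the test given below, and those of Entpd1, Nt5e and Ada were not.

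Adora2a region 1, chr10:75152736-75152764, plus strand: gacGCGTGgacctgaagcgccCACGTtgg

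Entpd1 region 1, chr19:40600780-40600808, plus strand: ctccttagcggcGCGTGgttcccgttacc

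Nt5e region 1, chr9:88209512-88209540, plus strand: tccctgcgggctGCGTGtgctgggccaga

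Ada region 1, chr2:163592008-163592036, minus strand: gagaaccgggaaCACGCtcggaaccatgg

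Adora2b region 1, chr11:62139542-62139662, plus strand: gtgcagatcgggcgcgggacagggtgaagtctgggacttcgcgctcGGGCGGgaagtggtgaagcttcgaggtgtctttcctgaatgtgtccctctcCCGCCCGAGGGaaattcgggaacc

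These 5 windows lie at or next to gene starts. The Adora2a window held both letter forms of the hypoxia element core, and those of Entpd1, Nt5e and Ada held GCGTG or its reverse complement, which follows from how these windows were placed. In the Adora2b window, which was placed on its summit, the capitals mark GGGCGG, the letters that SP1 and KLF factors bind, and CCCNNGGG, the letters of EBF, whose matches overlap at the right end. The next set holds regions inside genes that were called in the same test.

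Adora3 region 2, chr3:105799686-105799806, plus strand: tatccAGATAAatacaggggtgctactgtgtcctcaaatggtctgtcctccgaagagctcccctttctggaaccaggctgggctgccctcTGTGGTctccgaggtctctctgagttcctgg

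Ada region 2, chr2:163587009-163587129, minus strand: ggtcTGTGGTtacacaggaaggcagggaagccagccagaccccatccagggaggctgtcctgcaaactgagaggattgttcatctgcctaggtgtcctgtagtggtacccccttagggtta

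Entpd1 region 4, chr19:40628348-40628468, plus strand: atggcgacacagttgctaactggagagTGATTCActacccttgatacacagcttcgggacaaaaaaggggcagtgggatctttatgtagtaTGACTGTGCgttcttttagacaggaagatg

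Entpd1 region 10, chr19:40667368-40667488, plus strand: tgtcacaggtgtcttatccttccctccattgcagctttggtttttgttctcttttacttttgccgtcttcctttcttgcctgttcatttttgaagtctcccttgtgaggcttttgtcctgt

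Both of these regions that were called higher held TGTGGT, the letters of RUNX factors, and the Adora3 window also held AGATAA, the letters of GATA factors. Entpd1 region 4 held TGANTCA (AP-1) and TGACNNNGC (antioxidant response element), and Entpd1 region 10 held none of the 16 motifs in the bases shown. The base at each summit lay in a stretch of 50 bases found at 1 place in the genome for all 47 regions. Within 201 bases centred on the summit, ACGTG occurred in 3 of the 47 regions and in 11.6% of all regions, and GCGTG in 8 of 47 and in 18.5%. Those with ACGTG were Adora2a region 1, Adora2b region 2 and Adora3 region 4. RUNX letters occurred in 9 of 47 and in 17.6% of all, GATA letters in 2 and in 6.95%, AP-1 letters in 5 and in 5.51%, antioxidant element letters in 5 and in 8.26%, GGGCGG in 5 and in 14.7%, and EBF letters in 3 and in 8.24%. The other motifs searched were TGACGTCA (cyclic AMP element, 1 of 47 and 0.569% of all), CCGGAAGT (ETS, 0 and 1.25%), GAGGAAGT (PU.1, 3 and 4.16%), TTGCNNAA (CEBP, 5 and 8.68%), GGGNNTTCC (NF-kB, 0 and 3.77%), GGAAAA (NFAT, 12 and 15.5%), CTTTGA (TCF7, 6 and 11.3%) and GAAANNGAA (IRF, 7 and 6.47%). The median GC content of these windows was 48.3% for the 47 regions and 49.8% for all.

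Of the 47 regions, 24 had a peak in all 6 libraries and could be tested, and these are called shared. A limma test of the log2 summit pileup, centred on the median shared region of each library, called 3 of the 24 higher in HADA (12.5%) and 7 lower (29.2%). Over all 23970 shared regions it called 17.9% higher and 24.1% lower, so neither share of the members stood far from the background. The 3 higher regions were Adora2a region 1, Adora3 region 2 and Ada region 2. The 7 lower regions were Adora2b region 1 and 6 regions of Entpd1. The median log2 difference was −0.31 for the members and −0.04 for all shared regions, and without Entpd1 the members had 3 higher, 1 lower and a median of 0.40 over 14 regions. By role, the receptors had 2 of 8 higher and 1 lower with a median of 0.18, the ectoenzymes 0 of 11 higher and 6 lower with a median of −0.81, and the clearance genes 1 of 5 higher and 0 lower with a median of 0.55.

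The number of these calls differed with the scaling, with the measure of height and with the libraries kept. Against the library background instead of the median shared region, the median of all shared regions moved from −0.04 to 0.34, the share of calls that were higher moved from 42.7% to 62.8%, and the members had 9 higher and 5 lower calls. This scaling called 31% of all shared regions higher and 18.3% lower. By the rank of the authors' fold enrichment within its library, 57.9% of calls were higher and the members had 1 higher call, Entpd1 region 11, and 0 lower calls by limma. Of all shared regions, limma then called 6.57% higher and 4.78% lower (1574 and 1146), and 4843 and 3696 passed an unadjusted p of 0.05. Without HADA 2, limma called 2 member regions higher and 0 lower, beside 2.99% and 8.21% of all shared regions.

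**Figure D2:**
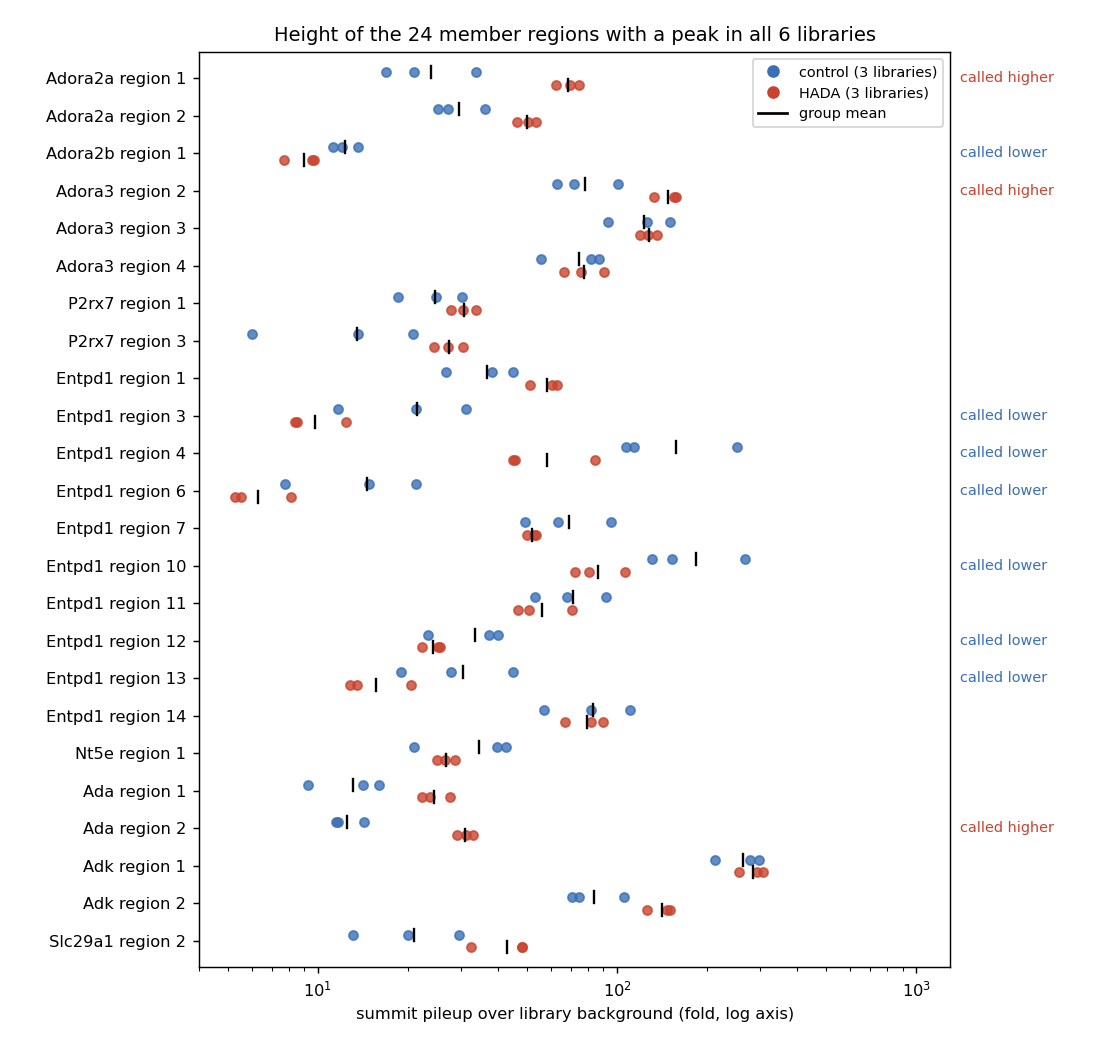
Summit pileup over library background (horizontal log axis) of the 24 member regions with a peak in all 6 libraries, with 1 point per library, controls in blue and HADA in red, black ticks at group means, and the limma call at the right. All 3 HADA points of Adora2a region 1, Adora3 region 2 and Ada region 2 lie to the right of all control points. HADA means lie to the left of control means for the Entpd1 regions except region 1, and by rank of fold regions 4, 7, 11, 12 and 14 of Entpd1 turn to higher.

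**Figure D3:**
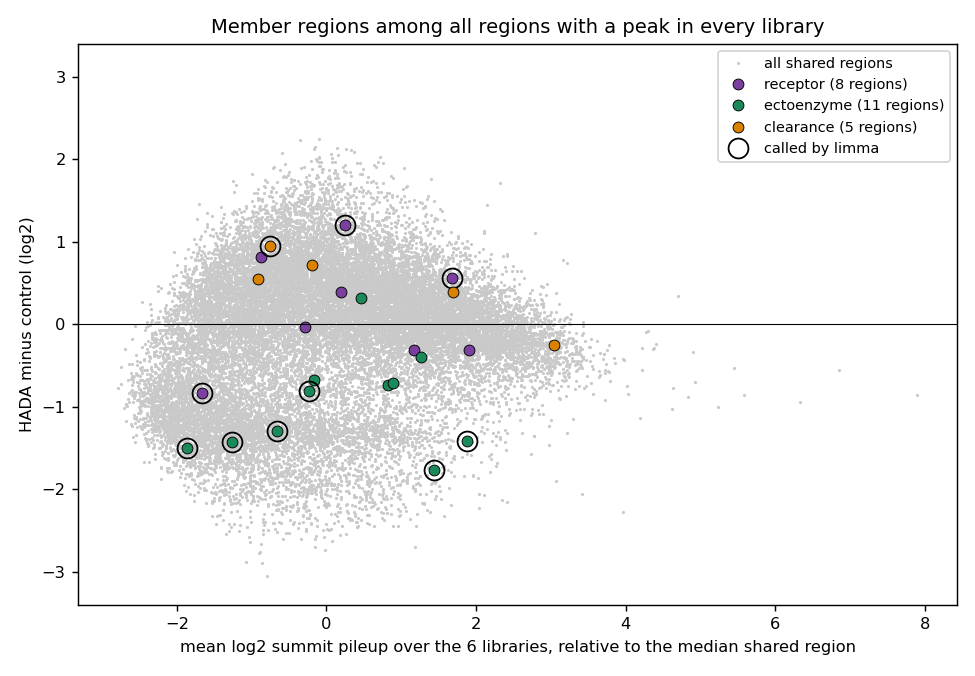
Difference HADA minus control (vertical axis, log2) against mean height (horizontal axis, log2 relative to the median shared region) for all 23970 shared regions in grey and the 24 member regions coloured by role, with called regions ringed. The called Entpd1 regions lie between −0.81 and −1.76 and Adora2a region 1 lies at 1.20, within the range of the grey points.

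Among the receptors, Adora2a, which raises cyclic AMP and restrains T cell and neutrophil activation, was more accessible at its start in HADA. Region 1 (chr10:75152404-75154032) has its summit in an untranslated exon 17 bp from an annotated start, and its height was 33.8, 20.9 and 16.9 in controls and 62.4, 74.3 and 69.5 in HADA. The groups did not overlap, and the lowest HADA library stood above the highest control. The highest summit of controls 1 and 2 lay at another place in the region, more than 150 bp from the summits of control 3 and the HADA libraries. The log2 difference in pileup was 1.20 ± 0.21 (SE, n = 3 and 3), or 2.30-fold, with a limma adjusted p of 0.00954, and by rank of fold the difference kept its direction with an adjusted p of 0.0568. The limma call held when any 1 library was left out, with adjusted p of at most 0.0465, but with summits within 150 bp merged the region was split and could not be tested. Region 2 (chr10:75162206-75163207), in an intron 10.0 kb from the first start, had heights of 36.1, 27.3 and 25.1 in controls and 46.1, 50.2 and 53.6 in HADA. Its log2 difference of 0.40 ± 0.17 was not called by limma (adjusted p = 0.0923), but it was called against the library background (0.78, adjusted p = 0.0238). The pileup of region 1 relative to region 2, a ratio within each library that needs no scaling, was 0.934, 0.768 and 0.674 in controls and 1.35, 1.48 and 1.295 in HADA. The B cell, NK cell, regulatory T cell and erythroid and platelet marker sums moved with Adora2a region 1, with all HADA above all control libraries and the controls in the same order, and the T cell sums were higher in HADA with another order of controls. The part of these cell types in the difference was not tested.

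Adora2b, a receptor of lower affinity that is a known target of hypoxia-inducible factor, had a low peak that was lower in HADA. Region 1 (chr11:62139224-62140316), 202 bp upstream of the annotated start, had heights of 11.3, 13.6 and 12.02 in controls and 7.69, 9.54 and 9.67 in HADA. The groups did not overlap, but the pileups behind them were small, at 19 to 28 in controls and 18 to 22 in HADA. The log2 difference was −0.84 ± 0.22 with a limma adjusted p of 0.0224. Against the library background it was −0.46 with an adjusted p of 0.191, and by rank of fold it was near 0 with an adjusted p of 0.998. Without control 2, HADA 1 or HADA 2 the limma adjusted p was 0.0511, 0.0823 and 0.0717. This region, too, was split and could not be tested with summits merged. A further region 2266 bp into the first intron had peaks in controls 1 and 3 and HADA 1 only, at 5.13 to 9.48.

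The starts of Adora2a and Adora2b were also compared within each library. The pileup at the Adora2a start over that at the Adora2b start was 3.00, 1.54 and 1.41 in controls and 8.11, 7.79 and 7.18 in HADA, without overlap. The means were 1.98 ± 0.88 and 7.69 ± 0.47 (SD, n = 3 each). The regions of this ratio, of that between regions 1 and 2 of Adora2a and of those within Entpd1 were chosen after their values had been seen, so the ratios are descriptions without a test.

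Adora3, also an adenosine receptor gene, had no summit within 3 kb of an annotated start, the nearest being 3733 bp upstream of one. Its 4 regions lay in an intron of a long form that overlaps Tmigd3, so they could belong to either gene. Region 2 (chr3:105799278-105800772) had heights of 101, 71.6 and 62.9 in controls and 155, 157 and 133 in HADA, with no overlap. The log2 difference of 0.57 ± 0.17 was called by limma with an adjusted p of 0.0288, which was 0.0556 without control 3 and 0.0742 to 0.108 without any 1 of the HADA libraries. The call was also lost by rank of fold (0.68, limma adjusted p = 0.0782) and with the replicate number as a block (limma adjusted p = 0.0772). With summits within 150 bp merged, the region was split and could not be tested. Regions 3 and 4, farther downstream, had log2 differences of −0.31 ± 0.22 and −0.31 ± 0.21, were not called by limma (adjusted p = 0.276 and 0.262), and turned to 0.07 each against the library background. Without control 3 they were −0.14 and −0.18. Region 1 had a peak in all 3 controls (5.84 to 7.11) and in HADA 3 (4.84).

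P2rx7, whose channel opens at high ATP and drives inflammasome activation, had no called region. Region 1 (chr5:122781902-122782843), in an intron 85 bp from a start, had heights of 30.2, 24.8 and 18.6 in controls and 27.8, 30.6 and 33.9 in HADA, and the groups overlapped. Its log2 difference was −0.03 ± 0.20 (limma adjusted p = 0.914), and it turned to 0.35 against the library background. Region 3 (chr5:122790531-122792017), in an intron 9.57 kb from the first start, had heights of 20.7, 13.6 and 6.01 in controls and 24.4, 30.6 and 27.3 in HADA. These groups did not overlap, but the controls spread over more than the gap between the groups, and the difference of 0.82 ± 0.36 was not called by limma (adjusted p = 0.0968). Against the library background it was 1.19 with an adjusted p of 0.000474, and without control 1, centred on the median, it was 1.11 (limma adjusted p = 0.0433). Without control 3 it was 0.33 (limma adjusted p = 0.178). Region 6 had peaks in all 3 HADA libraries (15.8 to 18.1) and in control 1 (13.6), and the other 3 regions had a peak in 1 to 3 libraries.

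Among the ectoenzymes, Entpd1 held the most regions of the 9 genes, 16, of which 10 were shared, and it gave 6 of the 7 lower calls. The called regions lay inside the gene and not at its first start. Region 1 (chr19:40600293-40601085), 17 bp upstream of the first start and within 3 kb of a start of Tctn3, had heights of 45.0, 26.8 and 38.3 in controls and 62.8, 60.8 and 51.0 in HADA. The log2 difference of 0.31 ± 0.19 was not called by limma (adjusted p = 0.207), although against the library background it was 0.69 with an adjusted p of 0.0444. Without control 2 it was 0.17 (limma adjusted p = 0.451).

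The 9 other shared regions of Entpd1, all intronic, had negative log2 differences after centring on the median shared region, although regions 4, 7, 11, 12 and 14 turned to higher by rank of fold. Region 4 (chr19:40625755-40628877), 27.6 kb from the first start, had heights of 114, 107 and 251 in controls and 84.2, 45.7 and 44.9 in HADA. Its log2 difference was −1.76 ± 0.41, or 0.295-fold, with a limma adjusted p of 0.0152, whereas by rank of fold it was 0.10 with an adjusted p of 0.766. Region 10 (chr19:40666855-40668546), 66.6 kb from the first start and 2683 bp upstream of an internal start, had heights of 153, 130.5 and 267 in controls and 106, 80.8 and 72.1 in HADA. The log2 difference was −1.41 ± 0.32 with a limma adjusted p of 0.0139. Control 3 was the highest library in both regions, and on the background scale the 6 libraries stood in the same order in both as in the neutrophil marker sums. Relative to the median shared region, control 2 stood above control 1 in both regions but not in the neutrophil sums. HADA 1 was the highest of the HADA libraries and the closest to the controls.

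The other 4 called regions of Entpd1 were lower peaks. Region 3 (chr19:40618624-40619934) had heights of 21.3, 11.7 and 31.2 in controls and 12.4, 8.54 and 8.35 in HADA, with a log2 difference of −1.42 ± 0.35 (limma adjusted p = 0.0174). Region 6 (chr19:40638344-40639095) had heights of 14.8, 7.79 and 21.3 in controls and 8.12, 5.52 and 5.28 in HADA, with a difference of −1.504 ± 0.36 (limma adjusted p = 0.0159). Region 13 (chr19:40681363-40682390) had heights of 27.8, 19.0 and 44.8 in controls and 20.5, 13.6 and 12.8 in HADA, with a difference of −1.29 ± 0.34 (limma adjusted p = 0.0210). In each of these, control 2 fell within the HADA values on the background scale. Region 12 (chr19:40675497-40676287) had heights of 37.3, 23.4 and 39.9 in controls and 22.2, 25.1 and 25.5 in HADA. Its log2 difference was −0.81 ± 0.23 (limma adjusted p = 0.0265), but by rank of fold it was 0.41, and against the library background it was not called (−0.43, adjusted p = 0.223).

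The remaining 3 shared regions of Entpd1 were not called. Region 7 (chr19:40648008-40649808), 144 bp from an internal start, had a log2 difference of −0.74 ± 0.27 (limma adjusted p = 0.0590). Region 11 (chr19:40672275-40673676) had a difference of −0.71 ± 0.26 (limma adjusted p = 0.0602), and region 14 (chr19:40696120-40697381) had one of −0.40 ± 0.26 (limma adjusted p = 0.247), which was −0.16 without control 3. With the same number of peaks per library regions 7 and 11 were called lower by limma (adjusted p = 0.0479 and 0.0488), and with summits within 150 bp merged region 11 was (0.0483). By rank of fold these 3 turned to 0.62, 0.65 and 0.52, and region 11 was then called higher by limma with an adjusted p of 0.0499. Without HADA 2, limma called 0 of the 10 shared Entpd1 regions, and the adjusted p of the 6 called here rose to between 0.0559 and 0.0836 while all kept their direction. Without HADA 3, regions 3, 6, 12 and 13 were lost, with limma adjusted p of 0.0502 to 0.0670, and without HADA 1 region 12 was (0.0917). Region 7 was called lower by limma without any 1 of the controls (adjusted p of 0.0351 to 0.0483), with a difference of −0.47 without control 3.

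Region 2 of Entpd1 (chr19:40604483-40604950) was present in HADA only, at 20.1, 15.1 and 15.8, and absent from the control lists. It lies in the first intron and inside the pseudogene Gm16027. Region 9, 53.7 kb from the first start, had heights of 86.5, 60.4 and 153 in controls, 43.6 and 23.6 in HADA 1 and 2, and no called peak of its own in HADA 3. Regions 5, 8, 15 and 16 held peaks in 1 to 5 libraries each.

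The pileups within each library describe Entpd1 without any scaling, for a called region against the start region. The pileup of region 4 over that of the start region was 2.53, 4 and 6.56 in controls and 1.34, 0.752 and 0.879 in HADA. The corresponding ratio for region 10 was 3.39, 4.87 and 6.99 in controls and 1.69, 1.33 and 1.41 in HADA. The choice of regions fixed the direction of both ratios. The neutrophil marker sums, at 282 to 796 in controls and 149 to 278 in HADA, moved with these regions. The monocyte sums overlapped on the background scale, but relative to the median shared region they, too, were lower in every HADA library (ratio of means 0.607). The part of the number of either cell type in the difference was not tested.

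**Figure D4:**
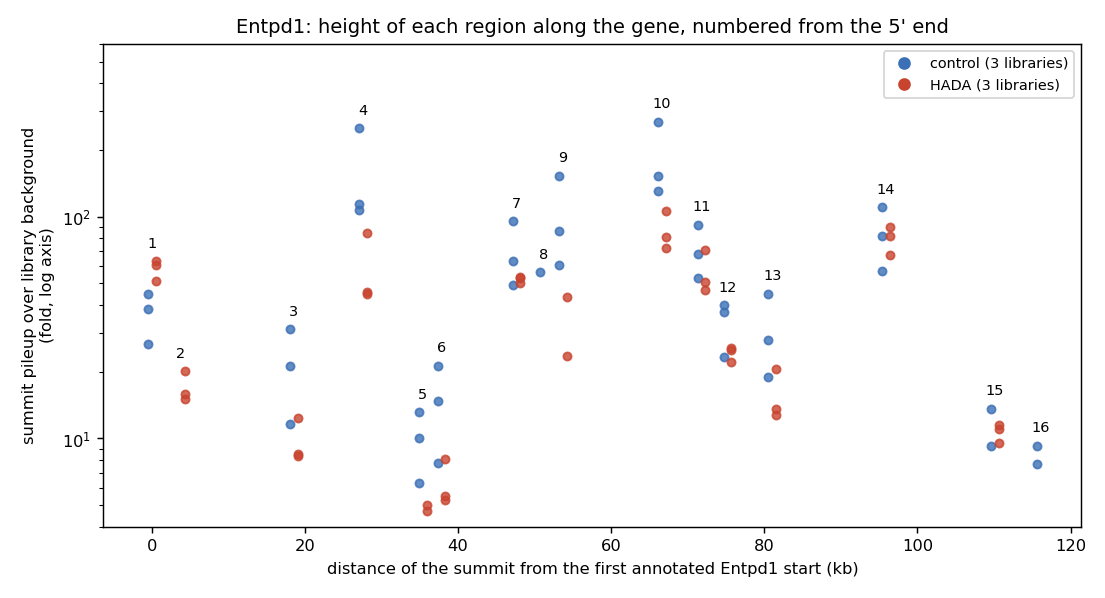
Summit pileup over library background (vertical log axis) of the 16 Entpd1 regions by distance of the summit from the first annotated start (horizontal axis, kb), with 1 point per library, controls in blue and HADA in red, set 0.5 kb to either side of the true distance. The start region 1 is higher in all HADA libraries, regions 4 and 10 are lower in all HADA libraries, and by rank of fold regions 4, 7, 11, 12 and 14 turn to higher.

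Nt5e, the enzyme that makes adenosine from AMP, had 5 regions and 1 that was shared. Region 1 (chr9:88209102-88210093) has its summit in an untranslated exon 86 bp upstream of an internal start, and its height was 39.7, 20.9 and 42.6 in controls and 28.6, 26.6 and 25.1 in HADA. The groups overlapped, because control 2 was the lowest library. The log2 difference was −0.68 ± 0.26 and was not called by limma (adjusted p = 0.0667), without control 2 it was −0.94 with an adjusted p of 0.0179, and without control 3 it was −0.48 with an adjusted p of 0.101. With summits within 150 bp merged it was called lower by limma (−0.71, adjusted p = 0.0488). Region 2, 2.40 kb from the first start, had peaks in controls 1 and 2 (10.1 and 11.2) and in all HADA libraries (13.6 to 19.6). Regions 3 and 4 had peaks in 2 controls each and in no HADA library, and region 5 had peaks in control 1 and all HADA libraries at 5.33 to 8.54.

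Among the clearance genes, Ada was more accessible in an intron in HADA. Region 2 (chr2:163586412-163587623), 5.09 kb from the first start, had heights of 14.2, 11.7 and 11.5 in controls and 31.2, 29.1 and 33.0 in HADA. The groups were tight and well apart. The log2 difference was 0.95 ± 0.16, or 1.93-fold, with a limma adjusted p of 0.00943, and by rank of fold the difference kept its direction with an adjusted p of 0.0523. The limma call held when any 1 library was left out, with adjusted p of at most 0.0447. Region 1 (chr2:163591628-163592562), 79 bp from a start, had heights of 15.99, 14.1 and 9.29 in controls and 22.2, 27.6 and 23.7 in HADA, also without overlap. Its log2 difference of 0.55 ± 0.21 was not called by limma (adjusted p = 0.0637), and it was called against the library background (0.93, adjusted p = 0.00645) and, centred on the median, without control 2 (limma adjusted p = 0.0407), while without control 3 it was 0.33 (limma adjusted p = 0.150). On the background scale, the B cell, NK cell, regulatory T cell and erythroid and platelet sums moved with Ada region 2 as well, with the controls again in the same order. The T cell sums were higher in HADA with another order of controls. Relative to the median shared region, control 1 was the lowest control at Ada region 2, and the NK cell sums overlapped between the groups. The part of any of these cell types was not tested.

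Adk, the kinase that returns adenosine to AMP, had the highest start region of the 9 genes. Region 1 (chr14:21101845-21103056), which lies in and at the start of Ap3m1 as well, had heights of 279, 212 and 298 in controls and 308, 294 and 255 in HADA. Between groups its log2 pileup differed by −0.25 ± 0.19 (limma adjusted p = 0.309), was −0.14 without control 3 and turned to 0.13 against the library background. Region 2 (chr14:21125748-21126732), 115 bp upstream of an internal start, had heights of 105, 70.6 and 74.9 in controls and 147, 150 and 126 in HADA. Its log2 difference of 0.39 ± 0.16 was not called by limma (adjusted p = 0.0770), and it was called against the library background (0.77, adjusted p = 0.0244). Region 8 (chr14:21349671-21350115), 247 kb from the first start, was present in HADA only, at 7.69, 10.0 and 7.04, with pileups of 16 to 20. Region 7 had peaks in controls 1 and 2 (7.11 and 4.87) and in all HADA libraries (8.79 to 12.05), and the other 4 regions had a peak in 1 library each.

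Slc29a1, the transporter that carries adenosine across the cell membrane, had 1 shared region, number 2 (chr17:45905760-45906778), in an untranslated exon 57 bp from a start and also inside Gm56882. Its height was 29.6, 19.96 and 13.1 in controls and 48.3, 48.2 and 32.5 in HADA, without overlap. The log2 difference was 0.72 ± 0.25 with a limma adjusted p of 0.0509, just past the threshold, and the call was made against the library background (1.10, adjusted p = 0.00136) and without control 1 (0.90, limma adjusted p = 0.0325). Without control 3 the difference was 0.43 (limma adjusted p = 0.129). With the replicate number as a block, the limma adjusted p was 0.0382, although the numbers did not pair the libraries. Region 1, 129 bp upstream of another start, had peaks in HADA 2 and HADA 3 only, at 13.1 and 9.67.

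The 2 member regions present in HADA only were Entpd1 region 2 and Adk region 8, that is 2 of 47, and 0 of 47 were present in controls only. Over all 62876 regions, 7.01% were present in all HADA and no control libraries and 1.88% in all control and no HADA libraries. Without control 1 the number in HADA only was 4.

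Summed over all peaks of a gene, 6 of the 9 genes had higher heights in every HADA than in every control library, 2 had lower ones and Nt5e overlapped. Over all 15397 genes with a peak, 50.2% were higher in this sense and 5.48% lower. The sums over Adora2a were 69.9, 48.2 and 42.1 in controls and 109, 125 and 123 in HADA. Those over Ada were 30.2, 25.8 and 20.8 against 53.4, 56.7 and 56.7, and those over Slc29a1 were 29.6, 19.96 and 13.1 against 48.3, 61.3 and 42.2. The lower genes were Adora2b, with 20.7, 13.6 and 18.0 in controls and 12.8, 9.54 and 9.67 in HADA, and Entpd1, with 744, 663 and 1232 in controls and 610, 479 and 454 in HADA. Each of these had a two-sided exact permutation p of 0.1, the smallest possible with 3 against 3.

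The remaining 3 higher genes depended on the scaling. Relative to the median shared region instead of the library background, Adora2a, Ada and Slc29a1 stayed higher and Adora2b and Entpd1 stayed lower without overlap, while Adora3, P2rx7 and Adk overlapped and the differences of Adora3 and Adk turned negative. Over all genes, 34.8% were then higher and 16.2% lower without overlap. On the background scale the HADA over control ratio of means was 2.22 for Adora2a, 2.17 for Ada, 2.42 for Slc29a1, 0.611 for Adora2b and 0.585 for Entpd1. On the median scale the same ratios were 1.75, 1.69, 1.91, 0.473 and 0.440. The ratio for Nt5e was 0.936 and 0.725 on the respective scales.

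**Figure D5:**
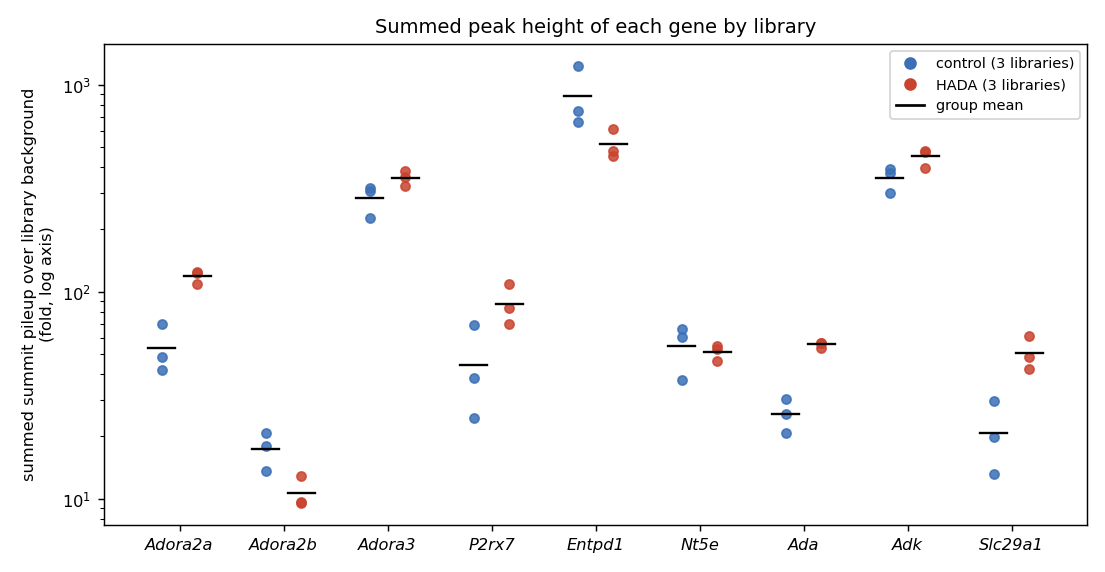
Summed summit pileup over library background (vertical log axis) of each of the 9 genes, with 1 point per library, controls in blue and HADA in red, and black lines at group means. Adora2b and Entpd1 are lower in all HADA libraries and Nt5e overlaps, while of the 6 higher genes Adora3, P2rx7 and Adk overlap when heights are taken relative to the median shared region.

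The number of peaks per gene did not separate the groups for any of the 9 genes. Over all genes, the number was higher in every HADA than in every control library for 10.6% and lower for 1.98%. Adora2a and Ada had 2 peaks in each library. Entpd1 had 14, 14 and 15 in controls and 14 in each HADA library. With the same number of peaks kept per library, however, its number was lower in every HADA library, by 2 on average (two-sided exact permutation p = 0.1), and that of Adk was higher in every one. This filter cuts each list to the 34045 peaks of control 3 and so removes more peaks from each HADA list than from any control list. The shares of 10.6% and 1.98% are of the unfiltered lists, and the share of all genes under this filter is not given here. P2rx7 had 4, 2 and 2 peaks in controls and 3, 6 and 4 in HADA (two-sided exact permutation p = 0.3), and Adk had 3, 5 and 2 against 5, 5 and 4 (p = 0.4, the same exact test).

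A list of 42 further genes of adenosine and nucleotide handling gave the surroundings of these loci. Of the 42 genes, 35 had a region and 29 had a shared one. Of their 51 shared regions limma called 15 higher, in 13 genes, and 12 lower, in 7 genes, with a median log2 difference of 0.19. These are 15 and 12 of 51 beside 17.9% and 24.1% of all shared regions. The receptors of the list had 4 of 14 higher and 5 lower, the ectoenzymes 6 of 10 and 2, the intracellular enzymes 2 of 19 and 5, and the transporters and channels 3 of 8 and 0.

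The highest differences of the list were at ectoenzymes and a transporter. The start of Enpp1, which cuts ATP to AMP and pyrophosphate, had heights of 30.8, 15.1 and 8.20 in controls and 60.7, 70.3 and 66.8 in HADA, a log2 difference of 1.70 ± 0.36 (limma adjusted p = 0.0124). A region of Slc28a3, a concentrative nucleoside transporter, had heights of 23.7, 21.4 and 9.84 in controls and 69.2, 57.7 and 62.4 in HADA, a difference of 1.503 ± 0.29 (limma adjusted p = 0.0109). A region of Bst1 differed by 1.41 ± 0.19 and one of Cd38 by 1.35 ± 0.24, with limma adjusted p of 0.00810 and 0.00984. Both genes encode enzymes that consume NAD outside the cell, and the start region of Bst1 was called lower (−1.504 ± 0.37, limma adjusted p = 0.0175). By rank of fold the calls at the starts of Enpp1 (0.65, limma adjusted p = 0.106) and Bst1 (−0.97, limma adjusted p = 0.0657) were lost.

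The lowest differences of the list were at Entpd3 and Nt5c2. A region of Entpd3, a relative of Entpd1, had heights of 66.9, 48.2 and 164 in controls and 35.5, 12.6 and 19.8 in HADA, a log2 difference of −2.35 ± 0.53 (limma adjusted p = 0.0140). In 3 regions of Nt5c2, a cytosolic nucleotidase, the log2 differences were −2.20, −2.09 and −2.08, with heights highest in control 3 in each. By rank of fold all 4 regions kept their direction, but Entpd3 (−0.53, limma adjusted p = 0.147) and the Nt5c2 region with −2.09 (−0.20, limma adjusted p = 0.452) were no longer called.

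Of the 123 regions of the list, 11 were present in HADA only and 1 in controls only, beside 7.01% and 1.88% of all regions. The HADA-only regions were 3 of P2ry12 and 1 each of P2rx3, P2rx4, P2ry10, Alpl, Nt5c2, Slc29a4, Slc28a1 and Panx1, with heights of 4.397 to 33.1. The control-only region belonged to Nt5c2, at 17.2, 13.1 and 15.3.

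Of the member regions within 3 kb of a start, Entpd1 region 10 had the largest absolute change after centring on the median shared region. Against the library background it was Adora2a region 1 (1.58, beside −1.03 for Entpd1 region 10), and by rank of fold Entpd1 region 11 (0.65, beside −0.19). The 3 protein-coding genes whose start regions ran most like Entpd1 region 10 over the 6 libraries, by Euclidean distance in centred log2 pileup, were Il1b (0.346), Gm45717 (0.370) and Fos (0.442). Because these genes were picked for their likeness to region 10, a similar order of libraries follows from the choice. The heights at Il1b were 162, 129 and 303 in controls and 116, 69.3 and 66.4 in HADA. Those at Fos were 139, 111 and 214 in controls and 114, 75.8 and 69.9 in HADA.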

How the data were processed

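Per the labels and the methods, the authors processed reads with Trimmomatic (trimming), Bowtie2 (alignment to GRCm39), Picard (duplicates) and MACS2, which called peaks in each library separately. Tool versions, MACS2 options and any shift of reads for Tn5 are not given in the sources used here, nor are read depths. Each deposited list gives the peak, its summit, a fold enrichment (ratio over local background), −log10 p and q values and a score. The score was not used.

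The summit pileup and background were solved from the deposited fold ratio and −log10 p of every peak (100% solved, checked on simulated peaks). Overlapping peaks (1 bp) were joined into regions, and the highest pileup of a library was taken where it had several peaks. Regions with a peak in all 6 libraries were tested with limma 3.58.1 (R 4.3.3) on log2 pileup, centred on the library median, with Benjamini-Hochberg adjustment at 0.05 over all 23970, and the step was checked on simulated regions. Sums and peak numbers per gene were tested by two-sided exact permutation, with a smallest p of 0.1. Alternatives were other scalings, peak filters (−log10 q of at least 5, or equal numbers), summits merged within 150 bp, windows of 1 and 10 kb, a replicate block and leaving out each library. All 9 genes are named, with regions in full where they were shared, called or in one group only, and of the further list the 4 largest called changes in each direction and every group-only region. The members and lists were chosen with earlier results of these data known. Groups and replicate numbers came from the labels. Pileups are counts of stacked fragments, so low peaks carry more counting error.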

Additional observations from a re-analysis of the deposited data

How the results depend on the processing

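Against the library background, the member calls were 9 higher and 5 lower, beside 31% and 18.3% of all shared regions. In addition, 4 regions that were not called turned positive: Adk region 1 (0.13), Adora3 regions 3 and 4 (0.073 and 0.068) and P2rx7 region 1 (0.35). By rank of fold, the members had 1 higher and 0 lower call and the further list 6 and 2, beside 6.57% and 4.78% of all shared regions. Entpd1 regions 4, 7, 11, 12 and 14 turned to 0.10, 0.62, 0.65, 0.41 and 0.52. The cause of these shifts was not tested. With summits within 150 bp merged, 17 member regions could be tested and 1, Ada region 2, was called higher and 7 lower, beside 3188 and 3773 of 17593 shared regions. The lower ones now included Nt5e region 1 and Entpd1 region 11, and Adora2b region 1 and Entpd1 region 6 could not be tested. Adora2a region 1, Adora2b region 1 and Adora3 region 2 were then split by summit, and none of the parts had a peak in all 6 libraries. With the same number of peaks per library, the further list had 7 lower calls, 1 member region was in controls only, and peak numbers lay apart in 1 gene upward (Adk) and 1 downward (Entpd1). With a −log10 q of at least 5 they lay apart upward in 2 genes, and within 10 kb of a start in 1. For Nt5e, the summed height difference turned to 5.75 and 3.38 and that of peak number to 1 and 0.667 with these 2 peak filters. On the median scale 3 genes were apart upward, and the summed differences of Adora3 and Adk were −0.33 and −0.30.

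Leaving out 1 library at a time, member regions called higher ranged from 2 to 5 and lower from 0 (without HADA 2) to 8. Beside these, 2.99% to 19.9% of all shared regions were called higher and 8.21% to 24.1% lower, with both lowest shares also without HADA 2. The further list had 5 to 17 higher calls, with the lowest again without HADA 2. HADA-only member regions ranged from 2 to 4 and control-only ones from 0 to 2, and genes apart in peak number from 0 to 1 in each direction. P2rx7 region 1 ranged between −0.21 and 0.071 and the summed difference of Nt5e between −12.2 and 2.22. The replicate numbers did not pair the libraries (correlations of same-numbered deviations −0.0797, 0.0751 and −0.376). As a replicate block they left 3 member regions higher and 7 lower, with Adora3 region 2 lost and Slc29a1 region 2 gained. Of all shared regions, 12.5% were then called higher and 23.6% lower. Depth is not known, and Adora2b region 1 and Adk region 8 rest on low pileups. Entpd1 region 2 had pileups of 30 to 47 in HADA, but its fold over local background was 3.05 to 3.91.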
